A study of Mus musculus with 10 samples.

Results

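The natriuretic peptide system of the heart was followed at the level of its transcripts. Its members were taken by symbol: the hormone genes Nppa and Nppb, the protease genes Corin and Furin, and the receptor genes Npr1, Npr2 and Npr3. All 7 were among the 11790 genes measured, and all 7 passed the filter on low values (an average FPKM of 1 or more across the 10 hearts), which left 9987 genes. FPKM is the number of sequenced fragments per length of gene, scaled to the size of the library, so levels are given per length of gene. RNA came from the whole-tissue hearts of 10 mice killed at 10 to 11 weeks of age in the randomly fed state. In 5 A-PDK1KO mice the kinase PDK1 (gene Pdpk1) was missing from adipocytes. The other 5, called controls, were PDK1 flox/flox mice. The sources used here do not give the Cre driver. Replicates are separate animals as far as the labels number them, and p-values measure the spread between these hearts.

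Natriuretic peptides are hormones that heart muscle cells release when they are stretched, and they lower blood volume and blood pressure. Nppa encodes the precursor of atrial natriuretic peptide (ANP) and is most active in atrial muscle, while Nppb encodes the precursor of B-type natriuretic peptide (BNP), a plasma marker of ventricular wall stress. Corin, a membrane protease of cardiomyocytes, cuts the ANP precursor, and furin, a protease of the Golgi apparatus, cuts the BNP precursor. Npr1 encodes the receptor for both hormones, a guanylyl cyclase that makes cyclic GMP. Npr2 encodes the related cyclase that answers to C-type natriuretic peptide, and Npr3 the clearance receptor, which has no cyclase and removes the hormones.

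Both hormone genes lie side by side on the plus strand of chromosome 4 (mm10, with gene models of GENCODE mouse release 21). Nppb spans 147985788 to 147987205 and Nppa 148000722 to 148002079, with 13516 bases between them and 3 exon blocks each. The 250 bases before each start, as placed by RefSeq on GRCm38.p6, are shown because both hormone genes were lower in A-PDK1KO hearts on average. They are chr4:148000472-148000721 for Nppa and chr4:147985650-147985899 for Nppb, both on the plus strand. Capitals mark matches on either strand to a GATA site (the letters GATA after A or T and before A or G), to the M-CAT element of TEAD factors (CATTCC) and to a TATA box (TATAAA):
Nppa: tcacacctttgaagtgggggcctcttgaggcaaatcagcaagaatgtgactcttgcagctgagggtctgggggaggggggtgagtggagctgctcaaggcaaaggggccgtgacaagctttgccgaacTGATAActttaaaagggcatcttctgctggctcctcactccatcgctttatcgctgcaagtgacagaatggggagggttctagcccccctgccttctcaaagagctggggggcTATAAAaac
Nppb: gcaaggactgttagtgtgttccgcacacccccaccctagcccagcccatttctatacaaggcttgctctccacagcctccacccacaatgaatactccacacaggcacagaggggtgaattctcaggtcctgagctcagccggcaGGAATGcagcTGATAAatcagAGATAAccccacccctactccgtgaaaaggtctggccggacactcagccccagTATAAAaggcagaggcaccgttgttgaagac
Nppa had 1 GATA match, which began 122 bases before its start. Nppb had 2 GATA matches, at 95 and 84 bases, and 1 M-CAT match at 105 bases, a letter group that the Nppa window did not hold. Each window held 1 TATA match, at 9 bases for Nppa and at 31 bases for Nppb. Of 32851 promoter windows of the same length in the RefSeq table, 26.5% held a GATA match, 12.6% an M-CAT match and 12.4% a TATA match. The NKX motif TNAAGTG, found in 10.1% of windows, had 1 match in Nppa, at 241 bases, and none in Nppb. Neither hormone window held AGAACA (the glucocorticoid receptor), GTAAACA (FoxO), TGANTCA (AP-1) or TGACGTCA (CRE). Neither held the strict CArG box of serum response factor, CCWWWWWWGG with W for A or T. Looser forms of these letter groups were not searched. The stretch ctttaaaagg after the GATA match of Nppa differs from the strict CArG box in its second letter. A match is only a match of letters. GENCODE places the Nppb start further upstream, at 147985788, inside the window shown. All stretches in capitals for Nppb lie after that start, so by that model they are within the gene.

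Between 9249256 and 11384423 reads were counted per library. The share of mitochondrial transcripts ran from 32.7% in control replicate 4 to 41.5%. A-PDK1KO replicate 2 had 10723 genes that reached 1 FPKM, and the other 9 hearts had 9671 to 10214. Pdpk1 averaged 3.55 ± 0.256 FPKM in controls and 3.46 ± 0.513 in the A-PDK1KO group (mean ± SD, n = 5 per group), which does not test a deletion made in adipocytes. All 7 ventricular muscle markers examined were measured. Their summed level was 13593 to 16146 FPKM in controls and 12632 to 14476 in the A-PDK1KO group. In the limma comparison described below, 6 had a log2 fold change under 0 and 1 above, and none was called. At an unadjusted limma p under 0.05 there were 3, all lower, against 15.6% of all genes tested in either direction. These were Myl2, Actc1 and Tnni3. All A-PDK1KO hearts were below all controls for Tnni3 (limma adjusted p = 0.0605), as for 2.23% of all genes tested. Of 6 adipocyte markers Fabp4, which capillary endothelium also expresses, was in the table, and Adipoq, Plin1, Cidec, Lep and Retn were not analysed here. Some samples contained atrial muscle: Myl7, the atrial myosin light chain, reached 85.9 and 71.3 FPKM in control replicates 2 and 5. In A-PDK1KO replicates 3 and 5 it reached 35.0 and 47.6 FPKM, and in the other 6 hearts at most 0.877 FPKM. Of 8 atrial markers 6 were in the table, and their summed level was 21.2 to 142.8 FPKM in controls and 21.8 to 87.5 in the A-PDK1KO group. In whole tissue, fewer cells of a type and less RNA per cell cannot be told apart.

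The genotypes were compared across all 9987 genes with limma on log2(FPKM + 1), and a gene was called at a Benjamini-Hochberg adjusted p under 0.05. Of all genes tested 2.08% were called, 1.21% (121) as higher and 0.871% (87) as lower in A-PDK1KO hearts, which scaling without mitochondrial and haemoglobin genes changed to 220 higher and 94 lower. Of the 7 members Nppb alone was called. In 4.96% of all genes tested the groups did not overlap (2.23% lower and 2.72% higher), and Nppb was the 1 member among them.

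Nppb, the BNP gene, was the member that passed the threshold. It stood at 648, 504, 491, 507 and 563 FPKM in control replicates 1 to 5. In A-PDK1KO replicates 1 to 5 it stood at 201, 215, 81.6, 141 and 129.9 FPKM. Every A-PDK1KO heart lay below every control, and the highest of them, replicate 2, was below the lowest control by more than the spread of either group. Group means were 543 ± 65.1 and 154 ± 54.7 FPKM (SD, n = 5 per group), from 3612 to 4712 reads per control heart and 704 to 1638 reads per A-PDK1KO heart. Nppb fell by 1.89 ± 0.21 (SE) on the log2(FPKM + 1) scale (limma adjusted p = 0.00429, 95% interval -2.35 to -1.42). By mean level it ranked 68 among the 11790 genes in controls and 251 in A-PDK1KO hearts.

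Nppa, the ANP gene, was lower on average but its groups overlapped. It stood at 486, 325, 214, 357 and 492 FPKM in control replicates 1 to 5. The A-PDK1KO replicates 1 to 5 were at 229.6, 234, 139, 267 and 159 FPKM. All 5 A-PDK1KO hearts were below the median control of 357 FPKM, and 2 of them, replicates 3 and 5, were below the lowest control. Control replicate 3 lay inside the A-PDK1KO range. The means were 375 ± 117 and 206 ± 54.3 FPKM (SD, n = 5 per group), with a log2 fold change of -0.84 ± 0.23 SE that did not pass (limma adjusted p = 0.0908, 95% interval -1.34 to -0.34). Without control replicate 3 it was -1.03 and passed (adjusted p = 0.0413). With limma voom on reads recovered from the FPKM values it was -0.85 and passed as well (adjusted p = 0.0467). Over all 21 other settings tried the adjusted p ran from 0.0413 to 0.686.

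**Figure D1:**
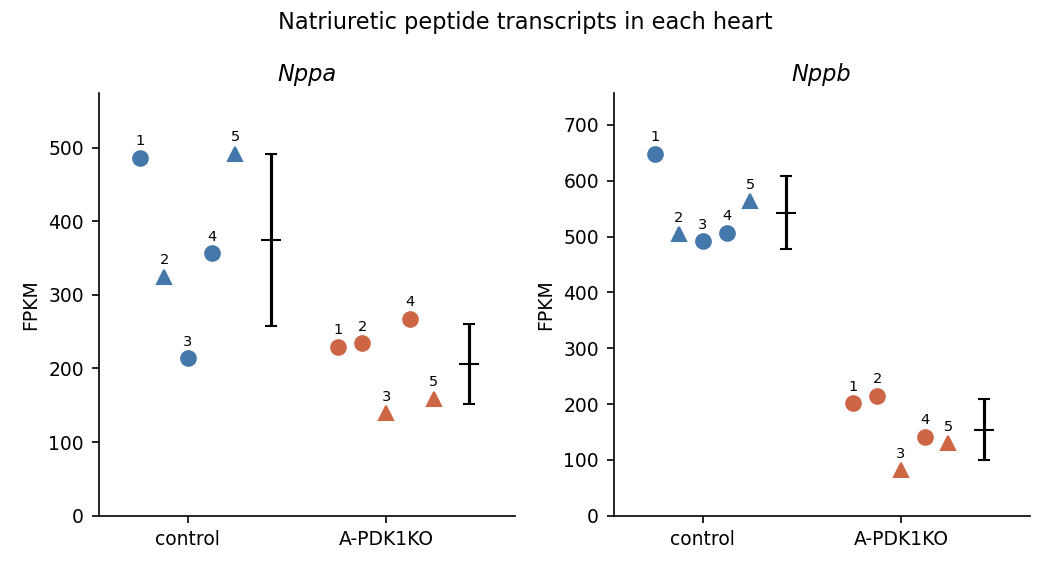
FPKM of Nppa (left) and Nppb (right) in each heart, by genotype, with the replicate number above each point. Triangles are hearts with Myl7 at 10 FPKM or more, and bars give the mean ± SD of 5 hearts. For Nppb the A-PDK1KO hearts, 81.6 to 215 FPKM, all lie below the controls, 491 to 648 FPKM, while for Nppa control replicate 3 lies among the A-PDK1KO hearts.

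The level of Nppa also depends on how shared reads were counted. Its exons overlap those of the antisense gene Gm13054 by 532 of 865 bases, and the sources used here do not give the strand setting. Gm13054 averaged 33.3 ± 10.7 FPKM in controls and 18.8 ± 6.11 in the A-PDK1KO group (SD, n = 5 each), a log2 fold change of -0.79 (limma adjusted p = 0.138) close to that of Nppa. Reads of the sense and antisense gene cannot be told apart here. No annotated gene overlapped Nppb.

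The order of both hormone transcripts differed between the genotypes. This order rests on the level of Nppa, which depends on how reads shared with Gm13054 were counted. In all 5 controls Nppb was higher than Nppa, with a ratio of 1.33, 1.55, 2.30, 1.42 and 1.145 in replicates 1 to 5. In all 5 A-PDK1KO hearts Nppb was lower than Nppa, with a ratio of 0.877, 0.919, 0.585, 0.528 and 0.819. The ratio averaged 1.55 ± 0.442 in controls and 0.746 ± 0.177 in A-PDK1KO hearts (SD, n = 5 per group) and is given with no test. Both transcripts added up to 706 to 1135 FPKM in controls and to 221 to 449 FPKM in A-PDK1KO hearts, a 2.55-fold lower mean.

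Atrial muscle in the sample did not go with high hormone transcripts in A-PDK1KO hearts. The 2 A-PDK1KO hearts with Myl7 at 10 FPKM or more had the lowest Nppa of all 10 hearts (139 and 159 FPKM) and the lowest Nppb (81.6 and 129.9 FPKM). The 2 controls with Myl7 at that level had 325 and 492 FPKM of Nppa and 504 and 563 FPKM of Nppb. Among the 6 hearts with Myl7 under 10 FPKM, Nppb was at 491 to 648 FPKM in 3 controls and 141 to 215 FPKM in 3 A-PDK1KO hearts. A refit on these 6 gave a log2 fold change of -1.57 (limma adjusted p = 0.0149). In the same 6 hearts Nppa was at 214 to 486 FPKM and 229.6 to 267 FPKM, and its log2 fold change was -0.46 (adjusted p = 0.686). With log2 Myl7 as a covariate in all 10 hearts the log2 fold changes were -1.91 for Nppb (adjusted p = 0.00237) and -0.85 for Nppa (adjusted p = 0.0950).

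The plot of log2 fold changes by setting shows how each hormone gene fared when the processing or the set of hearts was changed. Nppb was called in all 21 settings, with log2 fold changes from -2.03 to -1.57. Leaving out A-PDK1KO replicate 3, the heart with the least Nppb, gave -1.68.

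**Figure D2:**
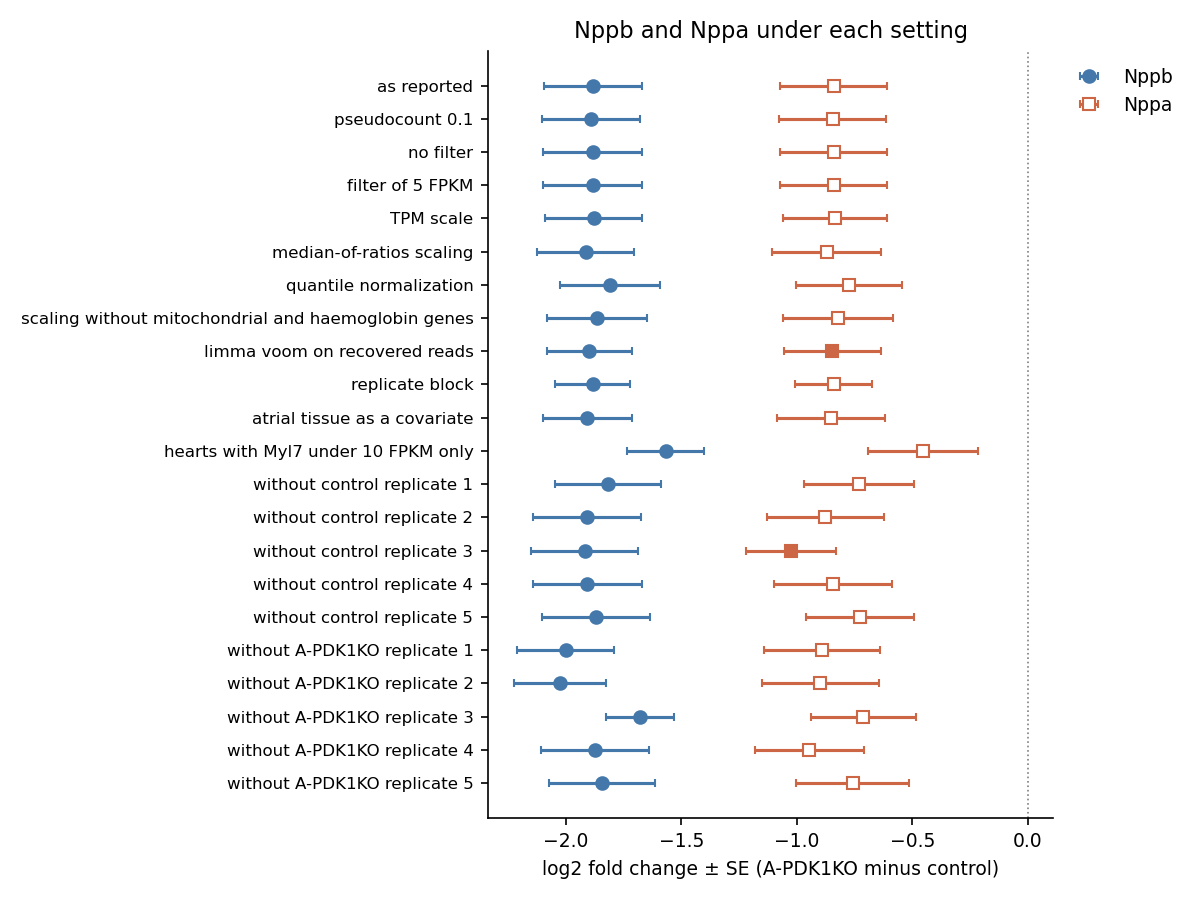
Log2 fold change ± SE (x axis, A-PDK1KO minus control) of Nppb (circles) and Nppa (squares) as reported and under each other setting or with 1 heart left out (rows). Filled symbols have a limma adjusted p under 0.05; Nppb is filled in every row, and Nppa in those of limma voom and without control replicate 3.

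The processing proteases showed small differences in opposite directions, and neither was called. Corin (chromosome 5, 72300025 to 72504473, minus strand, 24 exon blocks) was at 28.2, 24.7, 27.0, 29.7 and 24.8 FPKM in control replicates 1 to 5. It was at 24.6, 23.0, 26.5, 22.5 and 21.8 FPKM in A-PDK1KO replicates 1 to 5. Of these, 4 lay below the lowest control and replicate 3 lay inside the control range. The log2 fold change was -0.17 ± 0.07 SE (limma adjusted p = 0.285, 95% interval -0.33 to -0.01). Furin (chromosome 7, 80388585 to 80405436, minus strand) was at 8.29, 8.56, 8.83, 11.4 and 8.62 FPKM in control replicates 1 to 5. The A-PDK1KO replicates 1 to 5 had 9.36, 12.3, 10.6, 10.8 and 10.2 FPKM of Furin. Control replicate 4 stood among the A-PDK1KO hearts, which were otherwise above the other 4 controls. The log2 fold change of Furin was 0.20 ± 0.09 SE (adjusted p = 0.317, 95% interval 0.00170 to 0.41). Before adjustment both had a limma p under 0.05 (0.0361 for Corin and 0.0484 for Furin), as did 15.6% of all genes tested.

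The receptors did not separate the genotypes. Npr1, the ANP and BNP receptor (chromosome 3, 90450591 to 90465866, minus strand), was at 2.64, 2.85, 3.75, 3.68 and 3.63 FPKM in control replicates 1 to 5. The A-PDK1KO replicates 1 to 5 had 3.01, 4.25, 3.07, 3.23 and 3.75 FPKM, all but replicate 2 within the control range. Its means were 3.31 ± 0.523 and 3.46 ± 0.529 FPKM (SD, n = 5 per group), a log2 fold change of 0.05 (limma adjusted p = 0.880, 95% interval -0.18 to 0.28). Its direction is not settled: without control replicate 1 the log2 fold change was -0.0075 and without A-PDK1KO replicate 2 it was -0.0096. Npr2, the receptor for C-type natriuretic peptide (chromosome 4, 43631935 to 43651244, plus strand), was at 6.18 to 7.34 FPKM in controls, with a median of 6.55 FPKM. In A-PDK1KO hearts Npr2 was at 6.32 to 9.10 FPKM, with a median of 7.002 FPKM (log2 fold change 0.09, adjusted p = 0.733, 95% interval -0.12 to 0.29). Its highest value came from A-PDK1KO replicate 2, the heart with the most genes detected, which was also the highest of the 10 for Npr1 and Furin. Without that heart the log2 fold change was 0.00987 for Npr2 and 0.16 for Furin, and the part of its library in these values was not tested otherwise.

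Npr3, the clearance receptor (chromosome 15, 11839896 to 11907287, minus strand), was the least abundant member. It was at 1.93, 1.20, 1.53, 1.19 and 0.756 FPKM in control replicates 1 to 5. For A-PDK1KO replicates 1 to 5 the values were 0.966, 1.34, 1.13, 1.22 and 1.01 FPKM. These values rest on 76 to 168 reads per control heart and 87 to 130 reads per A-PDK1KO heart. The control range enclosed all A-PDK1KO hearts (log2 fold change -0.10, limma adjusted p = 0.758, 95% interval -0.38 to 0.17). Without control replicate 1, the heart with the most Npr3, the log2 fold change was -0.0146. The ratio of Npr3 to Npr1, clearance receptor to signalling receptor, was 0.208 to 0.731 in controls and 0.268 to 0.376 in A-PDK1KO hearts. Npr1, Npr2 and Corin each share exon bases with an antisense gene whose mean was at most 1.01 FPKM in either group, and Furin and Npr3 each with an antisense or divergent transcript that was not analysed here.

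**Figure D3:**
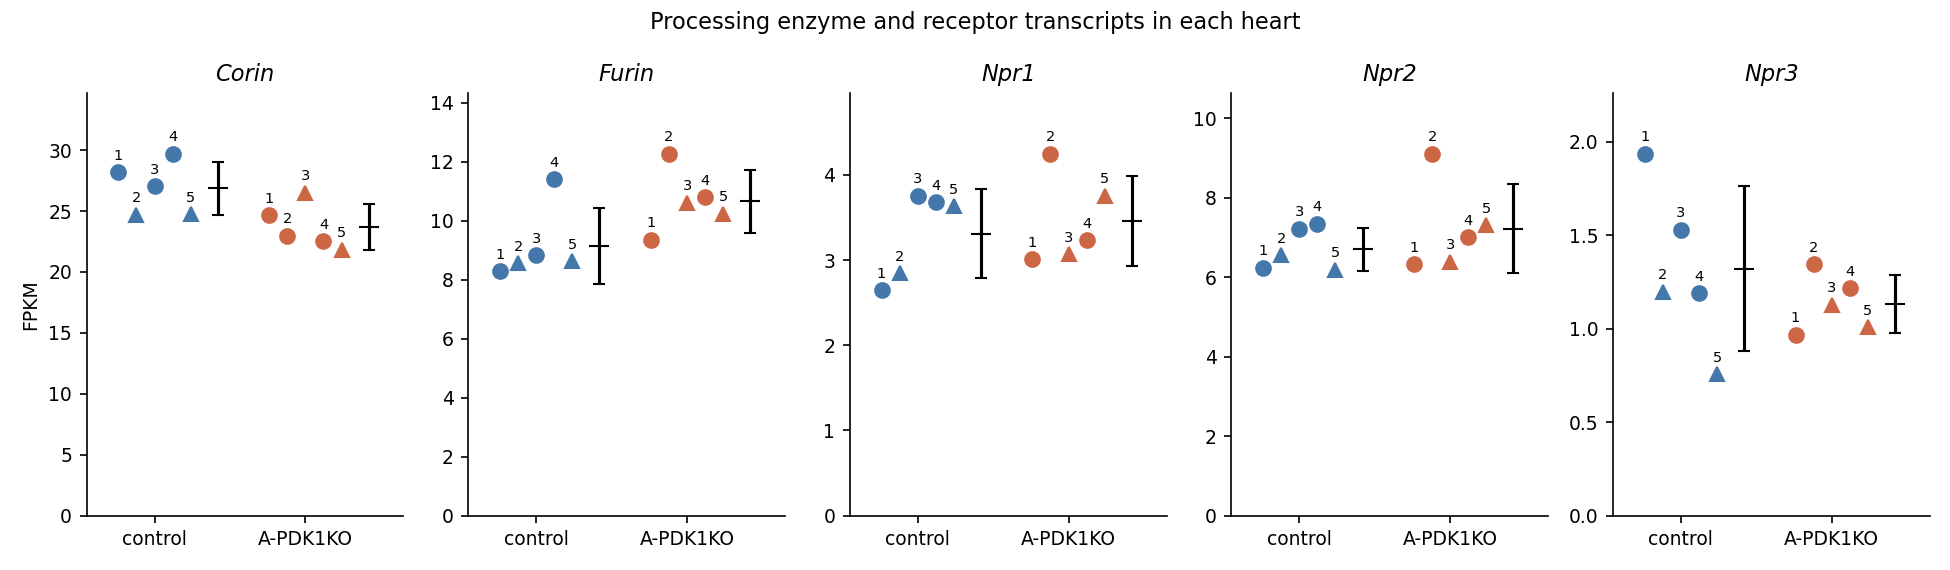
FPKM of the protease genes Corin and Furin and the receptor genes Npr1, Npr2 and Npr3 in each heart, by genotype, with replicate numbers, triangles for hearts with Myl7 at 10 FPKM or more, and bars for the mean ± SD of 5 hearts. The groups overlap in all 5 panels, and A-PDK1KO replicate 2 is the highest point for Furin, Npr1 and Npr2.

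Levels were compared per length of gene, and that of Nppa also depends on how reads shared with Gm13054 were counted. In controls the order of means was Nppb (543 FPKM), Nppa (375), Corin (26.9), Furin (9.14), Npr2 (6.70), Npr1 (3.31) and Npr3 (1.32). Over all 10 hearts the ranges of Nppb and Nppa overlapped, as did those of Furin (8.29 to 12.3 FPKM) and Npr2 (6.18 to 9.10 FPKM). The ranges of Corin and Furin, of Npr2 and Npr1 and of Npr1 and Npr3 did not.

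**Figure D4:**
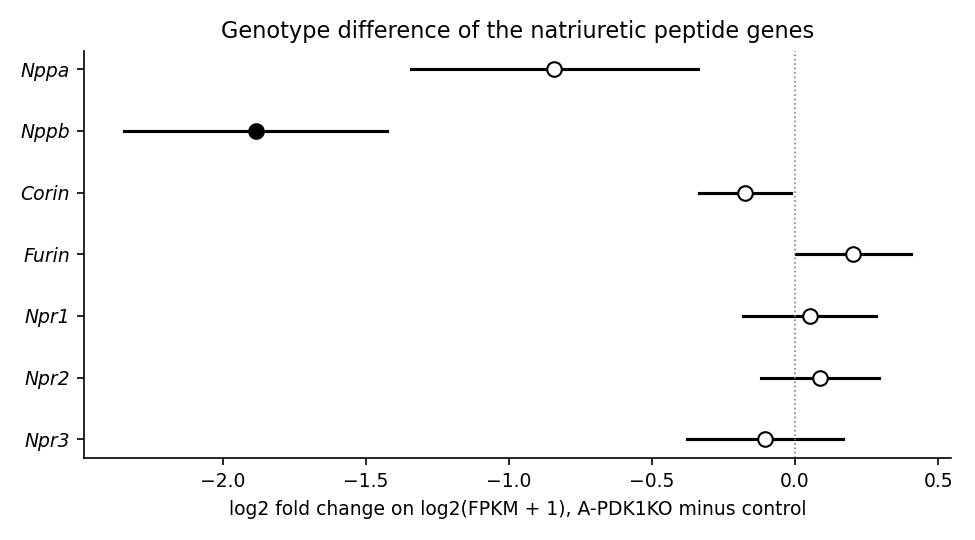
Log2 fold change on the log2(FPKM + 1) scale (x axis, A-PDK1KO minus control) of the 7 members, with its 95% interval from limma as a line. The filled symbol, Nppb at -1.89, has an adjusted p under 0.05; the open symbols do not, and the intervals of the receptors include 0.

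Genes within 200000 bases on either side of the hormone pair were compared to see whether the difference extended along the chromosome, a window chosen after the hormone values were known. Of 14 other genes tested there, 1 was called, against 2.08% of all genes tested. Their median log2 fold change was -0.04, against 0.02 over all genes tested. The 14 include Gm13054, whose reads cannot be told apart from those of Nppa. The called neighbour was Plod1, a collagen lysyl hydroxylase (147909753 to 147936767, minus strand), with means of 10.5 and 7.92 FPKM. Its log2 fold change was -0.37 (SE 0.07, limma adjusted p = 0.0220), with all A-PDK1KO hearts below all controls, as in 2.23% of all genes tested. The genes closest to the pair on either side were 2510039O18Rik, at 12.95 and 12.6 FPKM, and, beyond Gm13054, Clcn6, a chloride and proton exchanger of endosomes, at 1.08 and 1.33 FPKM. Neither passed (adjusted p = 0.956 and 0.490). Mfn2, the mitochondrial fusion protein and the most abundant neighbour, was at 136 and 131 FPKM (adjusted p = 0.811).

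**Figure D5:**
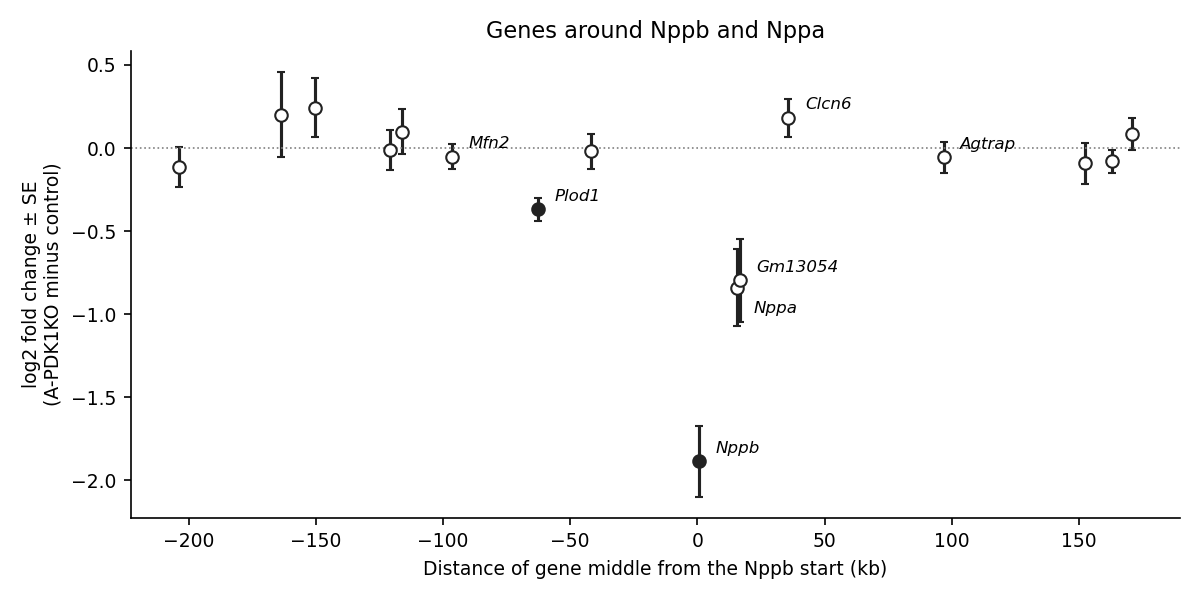
Log2 fold change ± SE (y axis, A-PDK1KO minus control) of the genes tested around the hormone pair, placed by the distance of the gene's middle from the Nppb start in kilobases (x axis). Filled symbols, Nppb and Plod1, have a limma adjusted p under 0.05; Nppa and its antisense gene Gm13054 lie at -0.84 and -0.79, and the other neighbours lie between -0.11 and 0.24.

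The rest of the pathway was read from lists chosen by role. Among 13 genes for other ligands and for peptide turnover 6 were tested and 0 were called by limma, with 1 at an unadjusted p under 0.05, against 15.6% of all genes tested (median log2 fold change 0.01). That 1 was Pam, the peptide amidating enzyme, which is abundant in atrial granules, at 48.6 ± 3.87 and 40.7 ± 3.63 FPKM (adjusted p = 0.125). Pcsk6, a proprotein convertase that activates corin, was at 10.3 ± 1.16 and 8.72 ± 1.49 FPKM, and Ece1, an endothelin-converting enzyme, at 8.55 ± 1.62 and 10.3 ± 1.34 FPKM. Nppc, the gene of C-type natriuretic peptide, and Ostn, a ligand of the clearance receptor, were not analysed here. Depending on the scaling, 1 gene of the list was called, with median-of-ratios factors and with scaling without mitochondrial and haemoglobin genes.

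Of 26 genes for the synthesis, breakdown and targets of cyclic GMP, from either the hormone receptors or nitric oxide, 12 were tested. Another 12 were not analysed here. Among these were Prkg1 and Prkg2, the genes of the cyclic GMP-dependent kinases, and the phosphodiesterase genes Pde2a, Pde5a and Pde9a. None of the 12 tested was called by limma, and their median log2 fold change was -0.04. Of them, 3 had an unadjusted p under 0.05, against 15.6% of all genes tested. These were Gucy1b1 and Gucy1a1, the subunits of the soluble, nitric oxide-sensitive guanylyl cyclase, and Pde1c, a calmodulin-dependent phosphodiesterase. Gucy1b1 was at 2.83 and 3.57 FPKM (adjusted p = 0.231) and Pde1c at 2.13 and 1.56 FPKM (adjusted p = 0.205). Named for their abundance, Pde6d was at 12.8 ± 1.46 and 11.98 ± 1.28 FPKM, Vasp, a cytoskeletal substrate of the cyclic GMP-dependent kinase, at 11.5 ± 1.71 and 10.1 ± 1.37 FPKM, and Rgs2, a brake on G protein signalling, at 5.98 ± 2.49 and 7.87 ± 2.08 FPKM. None of the 3 differed by more than the spread between hearts.

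Of 40 transcription factors and cofactors known for natriuretic peptide promoters, 32 were tested and 0 were called by limma, with 5 of the 32 at an unadjusted p under 0.05, against 15.6% of all genes tested, and a median log2 fold change of 0.06. Of these 5, 4 were higher in A-PDK1KO hearts: Nfatc1, Mef2a, Mef2d and Jun. Srf, the gene of serum response factor, was lower, at 27.4 and 22.7 FPKM (limma adjusted p = 0.294). Nfatc1 was at 1.62 and 2.19 FPKM (adjusted p = 0.103). All A-PDK1KO hearts were above all controls for Nfatc1, as for 2.72% of all genes tested. Gata4, the GATA factor of cardiomyocytes, averaged 28.9 ± 2.81 FPKM in controls and 28.8 ± 1.76 in the A-PDK1KO group (95% interval of the log2 fold change -0.16 to 0.16). The cardiac homeobox gene Nkx2-5 was at 43.9 ± 7.97 and 41.4 ± 2.89 FPKM, and Jund, an AP-1 subunit, at 101 ± 7.20 and 93.5 ± 13.2 FPKM.

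Of 26 other genes of the fetal and load-responsive programme that were tested, 1 was called, as lower, against 0.871% of all genes tested. Their median log2 fold change was -0.09, with 10 above 0 and 16 below, against 5457 above and 4530 below over all genes tested. The 16 include the atrial muscle genes Myl7 and Myl4, whose SE were 1.55 and 0.849. At an unadjusted p under 0.05 there were 6, of them 5 lower and 1 higher, against 15.6% of all genes tested in either direction. The count of called genes depended on the setting: it was 3 with median-of-ratios factors, 2 with scaling without mitochondrial and haemoglobin genes, and 0 on the TPM scale and among the 6 hearts with Myl7 under 10 FPKM. The called gene was Ankrd1, the stress-responsive ankyrin repeat protein of the sarcomere, whose log2 fold change was -0.65 (limma adjusted p = 0.0325), and leaving out single hearts ended its call in 7 of 10 refits. The other 4 lower genes were Synpo2l, a sarcomere-associated protein, at 20.2 and 14.2 FPKM (adjusted p = 0.0807), Fhl2, a LIM domain cofactor, at 255 and 216 FPKM (adjusted p = 0.196), Acta2, smooth muscle alpha-actin, at 23.1 and 16.6 FPKM (adjusted p = 0.252), and Atp2a2 (adjusted p = 0.165). The 1 higher gene, Myh7, the slow myosin heavy chain of the fetal ventricle, was at 35.3 and 52.4 FPKM (adjusted p = 0.229). Acta1, skeletal alpha-actin, was at 305 and 266 FPKM (adjusted p = 0.768). Myh6, the adult myosin heavy chain, was at 1766 ± 329.03 and 1615 ± 103 FPKM, the calcium pump gene Atp2a2 at 1546 ± 166 and 1316 ± 57.7 FPKM, and Pln, its inhibitor phospholamban, at 1217 ± 77.4 and 1193 ± 94.1 FPKM. Gucy1a1, Gucy1b1, Pde1c, Synpo2l, Fhl2, Acta2, Myh7, Acta1 and the neighbours of the hormone pair are named outside the rule, with their values already known. The same holds for Tnni3, Nfatc1, Mef2a, Mef2d, Jun and Srf.

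The genes whose levels most resembled those of Nppb over the 10 hearts were found by Pearson correlation of log2(FPKM + 1), as a description. They were Mrps21, a mitochondrial ribosomal protein (r = 0.96), Timm23, the core of the inner membrane protein import channel (0.93), Syngr1, a vesicle membrane protein (0.93), Sh3glb1, a membrane curvature protein (0.93), and Rwdd1 (0.93). In all 5 the A-PDK1KO hearts lay below the controls, as in 2.23% of all genes tested. The choice by likeness to Nppb, whose groups did not overlap, favours this, so it is no separate result. After subtraction of the group means r was between 0.40 and 0.75. Timm23 was called (log2 fold change -0.26, limma adjusted p = 0.0391) and the other 4 were not, against 2.08% called of all genes tested. For Nppa the 5 most alike were Atpif1, the inhibitor of ATP synthase, Serpinb6b, Serf2, Pdcl3 and Gpbp1, with r of 0.87 to 0.89, and of 0.73 to 0.81 after subtraction of the group means. Pdcl3 was called (log2 fold change -0.38, limma adjusted p = 0.0414) and the other 4 were not, against 2.08% of all genes tested. In Pdcl3 and Atpif1 all A-PDK1KO hearts lay below all controls, as in 2.23% of all genes tested. The choice by likeness favours this here too. No gene was among the 5 most alike for both hormones. Nppb and Nppa correlated with each other at r = 0.83, and at 0.64 after subtraction of the group means.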

How the data were processed

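RNA-seq was available for the hearts of 10 mice, 5 per genotype, grouped by the labels' titles. The deposited values are FPKM computed by the authors, 1 column per heart. The submitters' processing notes list Trimmomatic 0.38, HISAT2 2.1.0, featureCounts 1.6.3 and mm10, and the labels' protocols FastQC 0.11.7. The sources used here do not give the annotation or the strand setting. The lowest maximum of any gene was 1.00 FPKM. A column of cluster numbers, which the authors deposited with no unit (a score of another kind), was not used.

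FPKM were taken as log2(FPKM + 1). Those averaging 1 FPKM or more entered a limma 3.58.1 fit (R 4.3.3, empirical Bayes trend, two-sided, no covariate), A-PDK1KO minus control, with Benjamini-Hochberg adjustment over all 9987 genes. Log2 fold changes understate the change of low genes. Counted reads were recovered from FPKM and GENCODE union exon lengths, whole within 0.05 of a read in all hearts for 98.3% of genes. They gave the depths and an alternative test. Hearts of 1 group differed by more than sampling noise in every pair (chi-square per degree of freedom at least 5.31). On simulated reads with 200 changed genes, the fit recovered 41% of 1.5-fold and 95% of 2-fold changes, and 4 of 140 called genes were unchanged. The simulated spread was the same for all genes, so these shares need not hold for these hearts.

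The members, lists, markers and tests were chosen with earlier results of these data known. The motifs and the window of neighbouring genes were chosen after the values and promoter sequences had been seen. Named are the members, up to 6 called genes of each list, the 3 most abundant where fewer than 3 were called, and the 5 genes most like each hormone gene among those with at least 5 FPKM, predicted genes left out. Alternatives were another pseudocount, filter, scale, test, block, covariate or set of hearts.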

Additional observations from a re-analysis of the deposited data

Results flagged for a closer look

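Furin in control replicate 4 stood far from the other controls. It was at 11.4 FPKM, while the other 4 controls were at 8.29 to 8.83 FPKM. The gap was 0.826 of the group's range, against a critical value of 0.71 for 5 samples. Of 20 groups of values examined in this way (7 members, 2 ratios and 1 sum, in each genotype) it was the only 1 to stand out, and chance gives about 1 in 20. The same heart had the lowest share of mitochondrial reads, 32.7%, and the most genes at 1 FPKM or more among controls, 10214. Their part in the Furin value was not tested. Without control replicate 4 the log2 fold change of Furin was 0.28 (limma adjusted p = 0.0893).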

How the results depend on the processing

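Nppb kept its direction and its call in all 21 settings, and with 1 heart left out its log2 fold change was -2.03 to -1.68. Corin and Furin kept their direction and stayed uncalled in all 21. Npr1 changed sign when control replicate 1 (-0.00745) or A-PDK1KO replicate 2 (-0.00963) was left out, and the range over single hearts left out was -0.00963 to 0.0884. The number of genes called over the whole table, 208, was 62 on the TPM scale, 314 with scaling without mitochondrial and haemoglobin genes and 4 among the 6 hearts with Myl7 under 10 FPKM (3 against 3), and with 1 heart left out it was 57 to 150. The TPM scale and the scaling without mitochondrial and haemoglobin genes used all 10 hearts, while the refits on 6 hearts or with 1 left out compared fewer. The cause of these shifts was not tested. A minimum of 5 FPKM removed Npr1 and Npr3. With the replicate block 153 genes were called, among them 2 of the fetal and load-responsive list against 1 without it, and Nppb was called (adjusted p = 0.0108). The replicate numbers did not pair the hearts: same-numbered hearts had correlations of -0.12 to 0.09, and 0 of 10 hearts correlated best with their own number. Depth limits Npr3 most, at 76 to 168 reads per heart.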

Other observations

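Of 4 markers of conduction tissue 3 were measured and 2 were tested, both close to the filter of 1 FPKM in controls. Hcn4, the pacemaker channel, averaged 1.25 ± 0.278 FPKM in controls and 2.17 ± 0.880 in the A-PDK1KO group, and Tbx3, a transcription factor of the conduction system, at 1.35 ± 0.311 and 2.01 ± 0.385 FPKM (SD, n = 5 per group). Neither was called (limma adjusted p = 0.224 and 0.150), and both had an unadjusted p under 0.05, as did 15.6% of all genes tested. None of the endothelial, smooth muscle, fibroblast or immune markers tested was called. Their summed levels were 82.8 to 100.1 and 88.3 to 98.1 FPKM for endothelium, 32.0 to 71.8 and 31.6 to 44.2 FPKM for smooth muscle, 118 to 140 and 110 to 139 FPKM for fibroblasts, and 10.1 to 12.4 and 8.81 to 13.5 FPKM for immune cells, in controls and A-PDK1KO hearts. Of the 8 endothelial and endocardial markers tested, 6 had log2 fold changes above 0 and 2 below. An unadjusted limma p under 0.05 was found for 2, in opposite directions, against 15.6% of all genes tested. The higher was Nfatc1, an endocardial transcription factor, at 1.62 and 2.19 FPKM (limma adjusted p = 0.103). All A-PDK1KO hearts were above all controls for Nfatc1, as for 2.72% of all genes tested. The lower was Plvap, a protein of endothelial diaphragms, at 4.76 and 3.35 FPKM (adjusted p = 0.196). Nfatc1 and Plvap were singled out after their values were seen.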
